A study of Mus musculus with 2 samples.

Results

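Cells make cholesterol and fatty acids from acetyl-CoA through a shared set of enzymes, and 28 genes of sterol and fatty acid synthesis were followed here in prostaspheres with and without the transcription factor Sox9. The genes were chosen by name: 18 enzymes of the sterol pathway from Acat2 to Dhcr7, 4 genes of its control and transport (Insig1, Srebf1, Srebf2, Stard4) and 6 genes of fatty acid synthesis, elongation and desaturation. All 28 were found among the 27827 gene names on the array and are part of the 15131 gene names that were tested. All 28 were measured well above background in each of the 4 RNAs, so no gene was lost to the filter on dim probes. A gene was read from the brightest of its probes.

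Prostaspheres are spheres grown in Matrigel from single prostate epithelial cells. They came, per the labels, from epithelium of the urogenital sinus (UGS), the embryonic tissue that forms the prostate, taken at 16 dpc, whereas the study's methods for spheres describe adult prostate tissue. All spheres were grown with dihydrotestosterone for 6 days and then kept for 6 more days with tamoxifen (TAM, 5 µM) or vehicle. Each of 2 arrays compared a Cy5-labeled RNA with a Cy3-labeled RNA: the genotype comparison set TAM-treated wild-type spheres of C57/Bl6J background against TAM-treated ER-Sox9flox/flox spheres, and the treatment comparison set vehicle-treated ER-Sox9flox/flox spheres against TAM-treated ER-Sox9flox/flox spheres. In ER-Sox9flox/flox cells a Cre recombinase fused to the estrogen receptor, expressed from the ubiquitous Rosa26 locus, deletes Sox9 when TAM is added. Since the genotype label reads Sox9 null for both the vehicle-treated and the TAM-treated RNA, these were told apart by the treatment label. Every log2 ratio below is Sox9-expressing (Cy5) over Sox9-deleted (Cy3) RNA, and a positive value means more signal with Sox9.

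The deletion was visible in the brightest of 3 Sox9 probes, with log2 ratios of 2.69 and 2.37, and in the second, with 1.18 and 1.27, but the third was lower on both arrays, with a mean of -1.11 ± 0.16. The RNA with Sox9 carried Cy5 on both arrays, so dye and Sox9 cannot be told apart. The RNAs of the genotype comparison also differ in mouse line, and those of the treatment comparison in exposure to TAM. Each comparison has 1 array, so a difference on a single array has no replicate check. The mean of the 2 arrays was tested against 0 with limma, and nothing in the labels says that the RNAs of the 2 arrays came from separate animals, so its p-values measure only the spread between these 2 arrays. Across the array, 2 of 22731 probes passed an adjusted p of 0.05, which is 0.0088%.

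In the sterol pathway, HMG-CoA made from acetyl-CoA is turned into mevalonate, then into farnesyl pyrophosphate and squalene, and squalene is closed into lanosterol and trimmed to cholesterol. When membrane sterol is low, SREBP-2, the product of Srebf2, is carried to the Golgi and cut, and the freed part enters the nucleus and switches on nearly every gene of the pathway together. SREBP-1c, a product of Srebf1, does the same mainly for fatty acid genes. SREBPs act beside NF-Y, which binds CCAAT boxes, and these boxes in the promoters are therefore shown first.

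Promoter windows from 250 bases before to 50 bases after the transcription start were taken from RefSeq (mouse build GRCm38.p6). All 28 genes matched RefSeq, 1 of them by an older name (Sc4mol, now Msmo1), and 22 had a window. Windows of Fdps, Fdft1, Sqle, Stard4, Scd1 and Scd2 were not analysed here. CCAAT, read on both strands, was in 19 of the 22 genes, all but Acat2, Acaca and Elovl6. By window, since some genes have several starts, it was in 20 of 27 (74.1%), against 12289 of 32851 windows of all genes (37.4%). Among the sterol enzymes it was in 14 of 15 genes and, by window, in 14 of 18 (77.8%). The sterol regulatory element, searched as TCACNCCAC on both strands, was in 1 of 27 windows (3.7%), that of Hmgcs1, and in 1.24% of all windows. The E-box CACGTG, a palindrome that SREBPs can also bind, was in 4 of 27 windows (14.8%), of Hsd17b7, Sc5d, Dhcr7 and Insig1, and in 7.15% of all windows. A match describes letters in a window and is not evidence of binding.

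Stretches from 6 promoters follow, 5′ to 3′ along the gene, chosen to show the range from paired boxes to none: the 4 enzymes Hmgcs1, Mvd, Idi1 and Dhcr7 with higher ratios on both arrays, Acat2 with a similar ratio and no CCAAT, and Fasn, whose ratio differed in sign between the arrays. No enzyme with lower ratios on both arrays is printed, but those (Cyp51, Tm7sf2, Sc4mol and Sc5d) held CCAAT in their windows too. Capitals mark CCAAT or its complement ATTGG, and in Hmgcs1 also the sterol regulatory element.
Hmgcs1, chr13:119690201-119690320, plus strand: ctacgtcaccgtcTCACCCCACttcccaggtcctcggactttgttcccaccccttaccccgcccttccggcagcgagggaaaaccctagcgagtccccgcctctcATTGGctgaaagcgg
Mvd, chr8:122443423-122443522, minus strand: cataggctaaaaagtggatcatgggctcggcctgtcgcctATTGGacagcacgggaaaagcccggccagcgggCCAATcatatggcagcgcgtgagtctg
Idi1, chr13:8885506-8885605, plus strand: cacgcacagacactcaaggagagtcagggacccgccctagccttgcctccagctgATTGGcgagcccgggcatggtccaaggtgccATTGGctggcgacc
Dhcr7, chr7:143830114-143830213, plus strand, 1 of 3 starts: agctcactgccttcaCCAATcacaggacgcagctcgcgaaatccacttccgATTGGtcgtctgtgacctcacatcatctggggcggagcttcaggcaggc
Acat2, chr17:12960726-12960825, minus strand: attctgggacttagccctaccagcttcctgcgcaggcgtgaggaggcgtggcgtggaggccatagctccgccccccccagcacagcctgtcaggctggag
Fasn, chr11:120824548-120824647, minus strand: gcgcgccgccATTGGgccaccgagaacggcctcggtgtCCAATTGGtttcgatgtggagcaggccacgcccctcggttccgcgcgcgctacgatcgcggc
The Mvd, Idi1 and Dhcr7 stretches each hold a pair of boxes, and in Fasn a CCAAT and an ATTGG overlap. For Dhcr7 the start with the most CCAAT matches was printed, and the windows of its other starts held none.

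**Figure D1:**
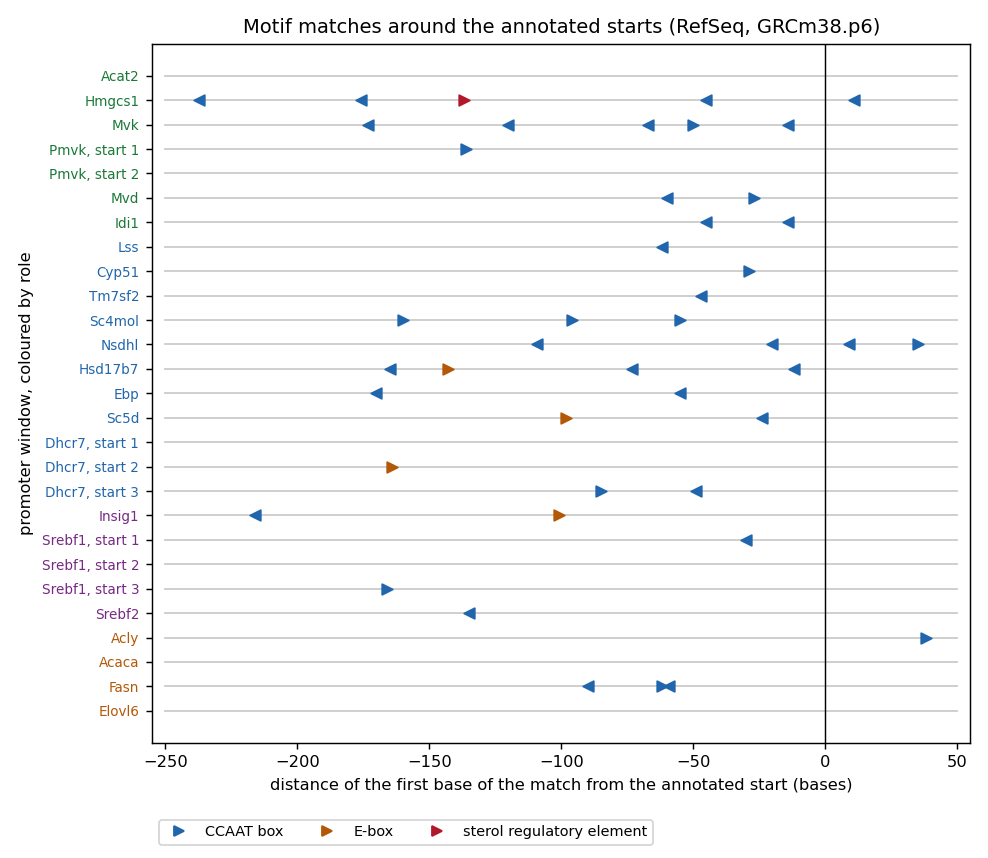
Positions of CCAAT, sterol regulatory element and E-box matches relative to the transcription start (x axis, bases, from 250 before to 50 after) in the promoter windows of the genes (rows); each triangle is a match and points along its strand. CCAAT matches lie in 20 of 27 windows, and the sterol regulatory element appears in the row of Hmgcs1 only.

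Differences of the sterol and fatty acid genes were small, and most leaned toward Sox9-expressing RNA. Of 28 genes, 15 were higher with Sox9 on both arrays (53.6%; 33.8% of all tested genes), 5 were lower on both (17.9%; 33.7% of all tested genes) and 8 had opposite signs. For the genotype comparison their median log2 ratio was 0.10 and for the treatment comparison 0.08, against -0.01 and 0.01 over all tested genes. None of the 28 passed the adjusted threshold, the lowest adjusted p being 0.109. At an unadjusted p of 0.05, 8 of 28 were higher (28.6%), where 10.5% of all tested genes were, and 1 was lower, where 9.07% were. The counts describe the list: its genes share regulators and are not replicates of each other. The treatment ratio depends on the normalization. With each array centred on its median in place of loess, the median of all tested genes in the treatment comparison moved from 0.01 to 0.42, and the genes' own median from 0.08 to 0.71, so 23 were higher on both arrays, where 50.4% of all tested genes then were, and none was lower on both.

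Sizes were judged on each array at a log2 ratio of 0.5. By genotype, 3 genes were at or above it (Stard4, Sqle and Acaca), where 2.89% of all tested genes were, and 1 was at or below -0.5 (Scd1), where 4.51% were. In the treatment comparison 2 were above it (Stard4 and Dhcr7), with Idi1 at 0.50 just under it, where 6.77% of all tested genes were. None was as far below, where 2.94% of all tested genes were. After loess no gene of the list reached a 2-fold difference on either array. With median centring the treatment ratios of Stard4, Idi1, Dhcr7 and Sqle were 1.15, 1.08, 1.04 and 1.02, which is above 2-fold. The treatment median of all tested genes was then 0.42, and their share above 2-fold is not given here.

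**Figure D2:**
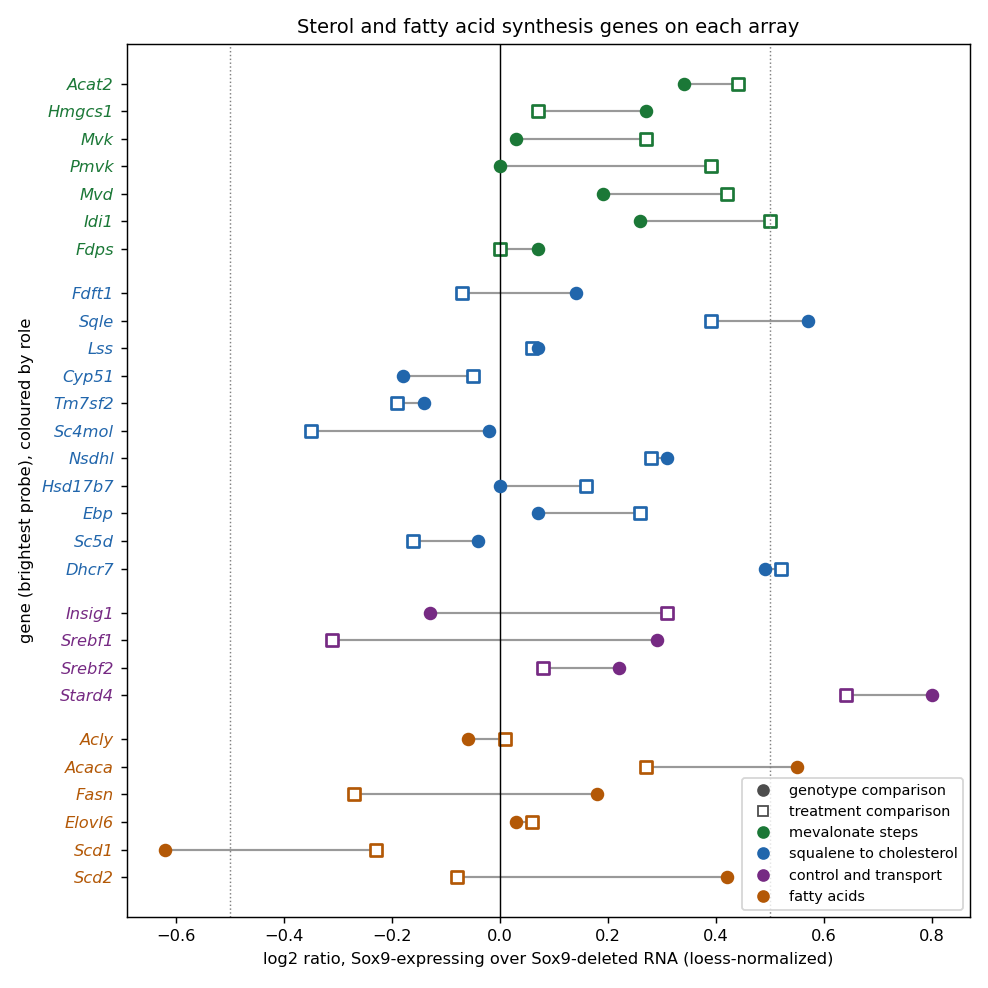
Log2 ratio of Sox9-expressing over Sox9-deleted RNA (x axis) for the brightest probe of each of the 28 genes (y axis), ordered by role. Filled circles give the genotype comparison, open squares the treatment comparison, 1 array each, and dotted lines mark 0.5 and -0.5. Stard4 lies farthest to the right, at 0.80 and 0.64, and Scd1 has the lowest genotype ratio, at -0.62.

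**Figure D3:**
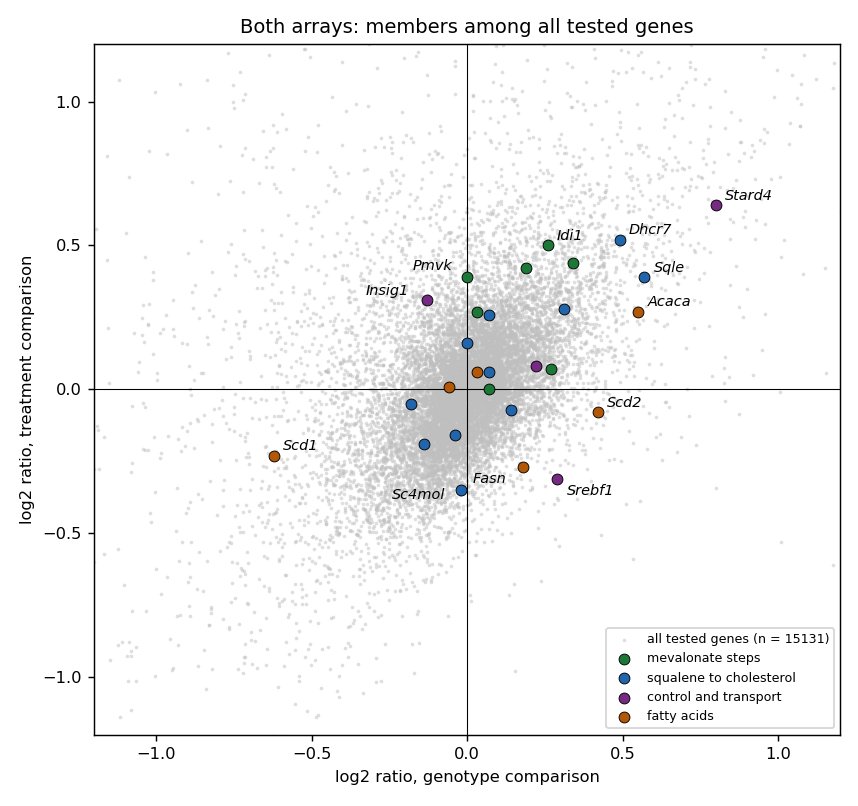
Genotype (x axis) against treatment (y axis) log2 ratio, Sox9-expressing over Sox9-deleted RNA, with all 15131 tested genes in grey and the 28 genes coloured by role; 296 genes lie outside the axes, which end at 1.2. On both arrays the 15 genes at the upper right were higher with Sox9, and the 5 at the lower left were lower, which none was with median centring.

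The 7 enzymes that lead from acetyl-CoA to farnesyl pyrophosphate gave the highest treatment median of the groups. Of these, 6 were higher on both arrays (85.7%, against 33.8% of all tested genes), with medians of 0.19 and 0.39. None was lower on both, where 33.7% of all tested genes were. The 6 include Pmvk, whose genotype ratio was 0.00. They were 5 with an offset of 10 and with the authors' values, and 7 with median centring and with the scanner's signals. Acat2, which joins acetyl-CoA molecules, gave a brightness (background-corrected, loess-normalized signal, in scanner units) of 337 in wild-type and 267 in Sox9-deleted RNA of the genotype comparison, and of 336 in vehicle and 247 in Sox9-deleted RNA of the treatment comparison. Both Sox9-expressing RNAs were the brighter, with log2 ratios of 0.34 and 0.44, a mean of 0.39 ± 0.07 (SD, n = 2 arrays) and an adjusted p of 0.171. Idi1, the isomerase that makes dimethylallyl pyrophosphate, gave 1884 against 1577 and 2263 against 1600. Its ratios of 0.26 and 0.50 were both above 0 (mean 0.38 ± 0.17, adjusted p = 0.206), and a second, dimmer Idi1 probe gave 0.25 and 0.67. The files place the Idi1 probe at chr2:53553575-53553634 of mm9, but RefSeq (GRCm38.p6) has the gene on chromosome 13, so the placement, and with it what the probe reads, is uncertain. Mvd, which decarboxylates mevalonate pyrophosphate, gave 1179 against 1030 and 1327 against 994. The mean of its ratios, 0.19 and 0.42, was 0.31 ± 0.16 (adjusted p = 0.243).

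Hmgcs1, the HMG-CoA synthase whose promoter holds the sterol regulatory element printed above, gave 4732 against 3917 and 4360 against 4145, with ratios of 0.27 and 0.07. Its brightest probe gave the smallest difference of its 3 probes: the other two gave 0.44 and 0.35, and 0.37 and 0.43. The kinases Mvk and Pmvk had genotype ratios of 0.03 and 0.00 and treatment ratios of 0.27 and 0.39. Pmvk read 1596 against 1593 and 2077 against 1585, so its RNAs stood apart on the treatment array only. Fdps, which makes farnesyl pyrophosphate, gave 0.07 and -0.00.

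The 11 enzymes from squalene formation to cholesterol were mixed, with medians of 0.07 and 0.06. On both arrays 5 were higher (45.5%, against 33.8% of all tested genes) and 4 lower (36.4%, against 33.7%). The largest differences were those of Sqle and Dhcr7. Sqle, the squalene epoxidase and a slow step of the pathway, gave a brightness of 4743 in wild-type and 3205 in Sox9-deleted RNA, and of 4288 in vehicle and 3276 in Sox9-deleted RNA. The Sox9-expressing RNA was the brighter on each array. The ratios of 0.57 and 0.39 averaged 0.48 ± 0.13, or 1.39-fold (unadjusted p = 0.00598, adjusted p = 0.157), from a single probe at chr15:59162384-59162443 (mm9). Dhcr7, the reductase of the last step to cholesterol, gave 868 against 617 and 878 against 613. Its ratios of 0.49 and 0.52 lay closer together than those of most members, with a mean of 0.51 ± 0.02, or 1.42-fold (unadjusted p = 0.00276, adjusted p = 0.13), at chr7:151034253-151034312 (mm9). A second Dhcr7 probe gave 0.12 and 0.21. Nsdhl, which removes carbon at position C4 of the sterol ring, gave 390 against 314 and 332 against 274. Its mean was 0.29 ± 0.02 (adjusted p = 0.2), but the means of its other 3 probes were 0.07, 0.06 and 0.05.

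Lower ratios on both arrays were found for Cyp51, Tm7sf2, Sc4mol and Sc5d. Tm7sf2, a sterol C14 reductase, gave 2006 against 2207 and 1882 against 2141, so the Sox9-deleted RNA was the brighter on each array, with ratios of -0.14 and -0.19. Sc4mol, the methyl sterol oxidase, read 9504 against 9653 and 7889 against 10045, with ratios of -0.02 and -0.35. Cyp51, the lanosterol demethylase, gave -0.18 and -0.05. Sc5d, the lathosterol desaturase, gave -0.04 and -0.16, and its second probe 0.13 and 0.61. None of these 4 had an unadjusted limma p under 0.05. The mean of each turned positive when the arrays were centred on their medians, to between 0.15 and 0.26. Among the other enzymes, Lss, which closes the ring, gave 0.07 and 0.06, and Ebp, a sterol isomerase that also binds TAM, gave 0.07 where both RNAs were exposed to TAM and 0.26 where 1 was. The difference of these Ebp ratios was not tested. Fdft1, the squalene synthase, gave 0.14 and -0.07, and Hsd17b7, a sterol ketoreductase, gave -0.00 and 0.16.

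Stard4 had the largest difference of the 28 genes. It encodes a small soluble protein that carries cholesterol between membranes. Its brightness was 1089 in wild-type and 626 in Sox9-deleted RNA of the genotype comparison, and 837 in vehicle and 539 in Sox9-deleted RNA of the treatment comparison. On each array the Sox9-expressing RNA was above the Sox9-deleted RNA. The log2 ratios were 0.80 and 0.64, with a mean of 0.72 ± 0.12, or 1.64-fold (unadjusted p = 0.00132, adjusted p = 0.109). Median centring gave a mean of 1.00 and an adjusted p of 0.0163, within a range of 0.0163 to 0.591 over the alternatives. The other 2 Stard4 probes gave smaller ratios of the same sign, 0.20 and 0.28, and 0.30 and 0.14.

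Of the regulators, Srebf2 had the same sign on both arrays after loess, and Srebf1 and Insig1 had opposite signs. Srebf2 gave 3983 against 3421 and 3628 against 3437, with ratios of 0.22 and 0.08 (mean 0.15 ± 0.10, adjusted p = 0.416). Its second probe gave -0.12 and -0.24, while the third and the fourth gave 0.14 and 0.10, and 0.16 and 0.07, so 1 of 4 probes was of the other sign. Srebf1 was among the brightest members, at 15501 against 12719 and 10044 against 12488. The wild-type RNA was the brighter on the first array and the Sox9-deleted RNA on the second, with ratios of 0.29 and -0.31. With median centring Srebf1 gave 0.46 and 0.43. Insig1, which holds the SREBPs in the endoplasmic reticulum when sterol is high, gave -0.13 and 0.31, and a second probe -0.35 and 0.12.

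The 6 fatty acid genes showed no shared direction after loess, with medians of 0.11 and -0.03 and 3 genes of opposite sign on the arrays. With median centring the medians were 0.20 and 0.54. Then 4 of 6 were higher on both arrays, where 50.4% of all tested genes were, and none was lower on both. Acaca, the acetyl-CoA carboxylase that makes malonyl-CoA, gave 739 against 505 and 536 against 443. Both Sox9-expressing RNAs were the brighter, and the ratios of 0.55 and 0.27 averaged 0.41 ± 0.19 (unadjusted p = 0.0172, adjusted p = 0.2). Its other tested probes averaged 0.00, 0.10 and 0.06, so the difference was seen in the brightest probe only. The others were dim, the brightest of them giving 233 against 223 and 148 against 155. Ptprc, an immune marker not well above background in any RNA, gave 133 against 133 and 62 against 63.9. With so little signal a difference could be missed. Scd1, which desaturates stearate to oleate, gave 1047 against 1608 and 1279 against 1499. The Sox9-deleted RNA was the brighter on both arrays, 1.54-fold and 1.17-fold, with ratios of -0.62 and -0.23 and a mean of -0.42 ± 0.28 (unadjusted p = 0.0293, adjusted p = 0.235). With median centring the genotype ratio was -0.57 and the treatment ratio 0.33. Scd2, a neighbouring gene of the same family on chromosome 19, was the brightest member, at 27169 against 20248 and 21416 against 22564, with ratios of 0.42 and -0.08. Fasn, the fatty acid synthase, gave 9920 against 8731 and 8050 against 9728, with ratios of 0.18 and -0.27. Acly, which supplies cytosolic acetyl-CoA, gave -0.06 and 0.01, and Elovl6, a fatty acid elongase, gave 0.03 and 0.06.

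Agreement among probes limits how firmly a gene can be read. Of the 28 genes, 18 had several tested probes. Of their 28 other tested probes, 22 had the sign of the brightest one in the mean of the arrays and 6 had the other sign. Hmgcs1 and Idi1 had larger means in their other probes than in the brightest, whereas Stard4, Dhcr7, Nsdhl and Acaca were larger in the brightest probe than in any other tested one. The other probes of Stard4, Dhcr7 and Acaca were much dimmer. By genotype the second Dhcr7 probe gave 227 against 209, and the first 868 against 617. The second Nsdhl probe (355 against 338) was nearly as bright as the first (390 against 314). The third Hmgcs1 probe was also dim, at 212 against 164, with a mean of 0.40. The part of low signal in the smaller ratios was not tested.

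**Figure D4:**
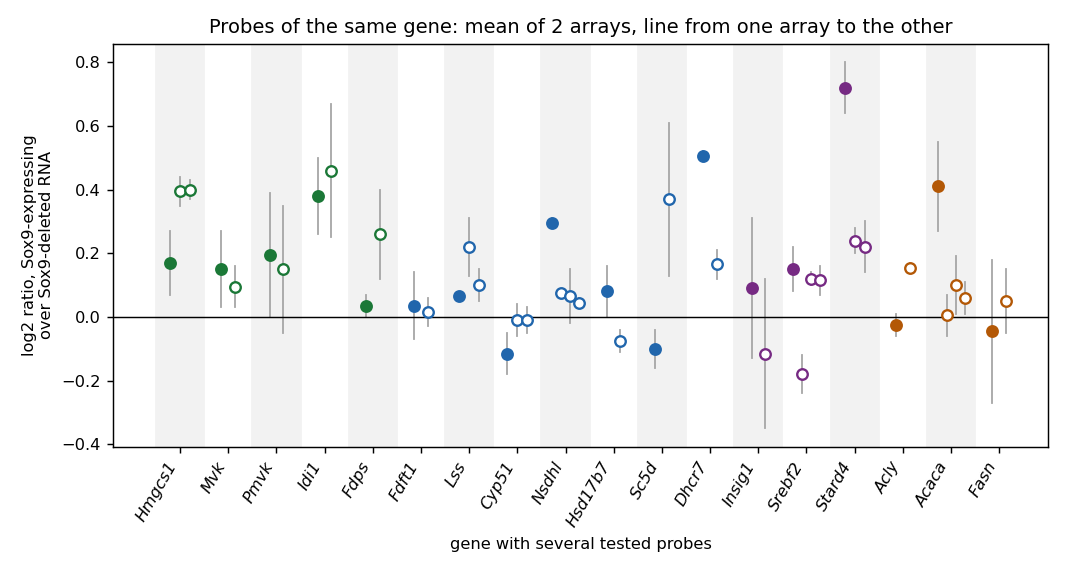
Mean log2 ratio of the 2 arrays, Sox9-expressing over Sox9-deleted RNA (y axis), for each tested probe of the 18 genes with several (x axis); filled circles are the brightest probe, open circles the others, and each line runs from the ratio of one array to that of the other. The filled circle of Stard4 lies at 0.72 and its open circles at 0.24 and 0.22.

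A wider list of 72 genes of lipid synthesis, transport, control and oxidation, of which 67 were tested, was read in the same way. Of these, 18 were higher on both arrays (26.9%; 33.8% of all tested genes) and 27 lower on both (40.3%; 33.7% of all tested genes), with medians of -0.05 and -0.01. None passed the adjusted threshold (lowest 0.0921, limma), while at an unadjusted p of 0.05, 4 were higher (5.97%; 10.5% of all tested genes) and 10 lower (14.9%; 9.07% of all tested genes). With median centring 35 were higher on both arrays, where 50.4% of all tested genes were, and 4 were lower. By the mean of the arrays after loess, the largest difference was that of Mid1ip1, which promotes assembly of acetyl-CoA carboxylase: it gave 2238 against 3980 and 2144 against 3779. The Sox9-deleted RNAs were the brighter on both arrays, with ratios of -0.83 and -0.82 and an adjusted p of 0.0921, and median centring gave -0.75 and -0.21. Genes of lipid uptake, transport and efflux had medians of -0.28 and -0.07. On both arrays 3 of 14 were higher (21.4%, against 33.8% of all tested genes) and 7 lower (50%, against 33.7%). Under median centring these medians were -0.25 and 0.55.

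Among the genes with the largest single ratios in the wider list, Abcg1, a sterol exporter, gave -0.92 and -0.53 (adjusted p = 0.15). Apoe, a lipoprotein component, gave -1.04 and -0.21. Me1, the malic enzyme that supplies NADPH for fatty acid synthesis, gave -0.99 and -0.24. These 3 were lower with Sox9 on both arrays, and for Apoe and Me1 the genotype array carried most of the mean. Median centring turned the treatment ratios of Apoe and Me1 to 0.48 and 0.28, and left that of Abcg1 at -0.09. Hsd17b12, a reductase of fatty acid elongation, gave -0.50 and -0.51 (adjusted p = 0.13). Pnpla2, a triglyceride lipase, gave -0.44 and -0.52 (adjusted p = 0.139). Mylip, a ubiquitin ligase that turns over lipoprotein receptors, gave 0.33 and 0.58 (adjusted p = 0.181). Lrp1, a lipoprotein receptor, gave -0.51 and -0.04, and Npc2, which moves cholesterol out of lysosomes, gave -0.49 and -0.11. With median centring the treatment ratios of Hsd17b12, Lrp1 and Npc2 were 0.06, 0.59 and 0.57, and that of Pnpla2 was -0.02.

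Markers of other cells and of proliferation were read in the same RNAs. In such bulk RNA, fewer cells of a type and less RNA per cell cannot be told apart. All 6 epithelial markers were well above background in the 4 RNAs, with summed brightness of 383385 against 214524 and 322632 against 264190. They did not move together: the basal keratins Krt5 (2.13 and 1.91) and Krt14 (2.07 and 1.86) had the highest ratios, and Epcam gave 0.46 and 0.37. The luminal keratins Krt8 (0.01 and -0.74) and Krt18 (-0.28 and -1.01) and the adhesion gene Cdh1 (-0.31 and -0.32) gave ratios near or below 0. Pbsn, a secretory marker of the mature prostate, was not well above background in any RNA. All 6 fibroblast markers were well above background, lower with Sox9 by genotype (median -0.78) and higher with Sox9 by treatment (median 0.76), with summed brightness of 22972 against 41583 and 68286 against 36772. Of 6 adipocyte markers 1, Fabp4, was well above background in all 4 RNAs and Plin and Lep in none, with summed brightness between 1765 and 2322. The 3 hepatocyte markers were well above background in none. Of 4 immune markers, Ptprc, Emr1 and Cd3e were well above background in none, and the macrophage marker Cd68 was in all 4 RNAs, at 356 against 572 and 298 against 510, or -0.69 and -0.77. Summed brightness of the immune list was 763 against 974 and 501 against 710. All 6 proliferation markers were well above background, with summed brightness of 5101 against 4491 and 6160 against 4433. On both arrays 5 were higher with Sox9, where 33.8% of all tested genes were, with medians of 0.14 and 0.65. The part of basal keratin, proliferation and fibroblast RNA in the ratios of the sterol genes, and of Cd68-bearing cells in those of Apoe and Abcg1, was not tested.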

How the data were processed

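The authors hybridized cRNA of 4 RNAs to 2 Agilent whole mouse genome arrays on 1 slide; limma is named in the submitters' processing notes without a version. The authors deposited spot intensity and local background from Agilent Feature Extraction 10.5.1.1 (probe positions mm9) and a table of processed values, which on the scanner's log10 ratio have slopes of 3.12 and 3.14 and so are log2 ratios of Cy5 over Cy3; their medians are -0.00989 and -0.00344, and their centring steps are not known here. Of 45018 spots per array, 1639 control spots and 126 and 130 outlier spots were left out, giving 41174 probes. Intensities were corrected by normexp (offset 50), which the brightness values include, and normalized by loess with limma 3.58.1 in R 4.3.3 (version 1.17.8 of data.table). No step put the 2 arrays on a common scale, so brightness can be compared only within an array. Tested probes (22731) were those well above background on both arrays in the same dye. The mean of the arrays was tested against 0 2-sided by limma's moderated linear model, adjusted by Benjamini-Hochberg over these probes (1 residual df, prior df 2.77). Between 53.9% and 56.2% of probes per channel were well above background, no spot was saturated, and the number of arrays limits precision. The brightest tested probe stood for a gene; from the wider list the 10 genes with the largest ratio on either array were named. Alternatives changed background correction, normalization, dim-probe filter, probe choice, test, and array left out. The fit was tested on simulated data. Tables used Python 3.11.15, numpy 2.4.6, pandas 2.3.3 and scipy 1.17.1, figures matplotlib 3.10.9. The genes and lists were chosen with earlier results of these data known.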

Additional observations from a re-analysis of the deposited data

Results flagged for a closer look

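Srebf1, Fasn and Insig1 had ratios of opposite sign on the 2 arrays, each past 2 times the median SD of replicate spots of a probe (0.0724 and 0.0858 for the genotype and treatment comparisons, over 167 probes). Srebf1 gave 0.29 and -0.31, so the treatment ratio was lower than the genotype ratio by a difference of -0.60. Fasn gave 0.18 and -0.27, a difference of -0.46. Insig1 gave -0.13 and 0.31, a difference of 0.44. With median centring the opposite signs of Srebf1 (0.46 and 0.43) and Fasn (0.33 and 0.45) were gone, and Insig1 gave -0.10 and 0.73. With 1 array per comparison these differences were not tested.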

How the results depend on the processing

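Of 252 means of the arrays recomputed for the 28 genes under 9 alternatives, 239 kept direction and side of the threshold. For 19 genes this mean never changed sign. The ratio of a single array could still do so: that of Scd1 in the treatment comparison went from -0.23 to 0.33 with median centring. The changes of dim-probe filter and of test left the ratios of these genes as they were. Direction could therefore not change under them, and these counts overstate how far it was checked. Median centring turned the mean of Cyp51 to 0.15, Tm7sf2 to 0.16, Sc4mol to 0.25, Sc5d to 0.26, Srebf1 to 0.44, Acly to 0.25 and Fasn to 0.39. The scanner's processed signals turned Scd2 to -0.01, and the mean over probes turned Sc5d to 0.13, Insig1 to -0.01, Acly to 0.07 and Fasn to 0.00. Median centring called 1 of the 28 genes, Stard4, gave 5 genes at 0.5 or above in the genotype and 21 in the treatment comparison, and a treatment median of 0.71. Under it the treatment median of all tested genes was itself 0.42. The share of all tested genes at 0.5 or above under the alternatives is not given here, so these counts are not a result about the 28 genes. Genes at 0.5 or above numbered 6 in the genotype comparison with the scanner's signals, 1 with the mean over probes, and in the treatment comparison 1 without background subtraction and 1 with the mean over probes. Probes called over the array, 2 in the report, were 522 with median centring, 68 with the authors' values, and 0 with an offset of 10, without background subtraction, with the scanner's signals, with the mean over probes and with the methods' t-test, against 3515, 4309, 3694, 2519 and 1925 at an unadjusted p under 0.05. The cause of these shifts was not tested. Less the median of all tested genes, the genes' median lay between 0.10 and 0.18 in the genotype and 0.06 and 0.29 in the treatment comparison. Leaving out an array leaves the other's ratio, with no test. No paired analysis was possible because each comparison has 1 array.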

Other observations

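Genes of fatty acid oxidation, which breaks down the product of the synthesis genes, were read from the wider list. Of 11 tested, 4 had positive ratios on both arrays (36.4%; 33.8% of all tested genes) and 1 had negative ones (9.09%; 33.7% of all tested genes). The other 6 were lower in the genotype comparison and higher in the treatment comparison. The medians were -0.06 and 0.18, and 0.01 and 0.76 with median centring. Cpt1a, the gate of fatty acid entry into mitochondria, gave 0.08 and 0.54 (limma adjusted p = 0.35).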
